A study of Mus musculus with 22 samples.

Results

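The lysosomal genes described here are 47 listed genes of 4 roles: 22 hydrolases, which cut lipids, sugars and proteins, 4 soluble cofactors, 10 membrane proteins and 11 subunits of the proton pump. A gene's value is that of the probe set mapping to it alone, and where several did, of the one with the highest mean. This left 46 of the 47 genes, out of 19937 genes with such a probe set on the array. The pump subunit Atp6v0c had none and was not measured here. All 46 passed the filter on low values, which kept 11830 genes.

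RNA came from microglia, the resident macrophages of the brain, from WT and Trem2-/- mice (KO below), sorted by the surface proteins CD11b, CD45 and F4/80, all of which had to be present. Trem2 is a lipid-sensing receptor of microglia. Mice received normal chow (2 WT control and 2 KO control arrays), 0.2% cuprizone for 4 weeks (3 WT and 3 KO arrays), 0.1% Covi-Ox T70, a mixed tocopherol product, with added alpha tocopherol for 4 weeks (3 WT arrays), or cuprizone and Covi-Ox together for 4 weeks (3 WT arrays, called WT both). Before these 4 weeks, the group given cuprizone alone had 2 weeks of normal chow and the group given both had 2 weeks of Covi-Ox. The labels name no such lead-in for Covi-Ox alone. The chelator cuprizone binds copper and causes loss of oligodendrocytes and of brain myelin. The labels of another 6 KO arrays are contradictory. The titles of 3 (set A) name both additives while their other fields name Covi-Ox alone, and the other 3 (set B) have the reverse, so no diet was assigned to either set. The labels give no age or sex and do not say how many animals stand behind an array, so p-values measure the spread between arrays, which may be technical.

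Lysosomes digest what microglia engulf, myelin debris included. The proton pump acidifies the lumen, which the hydrolases need, cofactors present lipids to the enzymes, and membrane proteins carry the products out or protect the membrane. Many lysosomal genes share a promoter element bound by the transcription factor TFEB and its relatives, the CLEAR element, whose core is CACGTG.

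The promoters of 41 of the 47 genes were matched in RefSeq (assembly GRCm38.p6, 250 bases before to 50 after the annotated start). Those of 6 genes are shown as examples with and without this element, and the calls with and without it are counted further on. The core CACGTG, which reads the same on both strands, was present in 12 of the 41 genes, and in 25.5% of the members' 47 promoters against 7.15% of all 32851 promoters. The longer TCACGTGA, which contains the core, was present in 10.6% against 0.974%. A match describes the letters and is not a binding site. Below, Gla (chrX:134600956-134601255, minus strand) and Gaa (chr11:119267713-119268012, plus strand) hold the core and rose in both WT cuprizone comparisons. Glb1 (chr9:114400828-114401127, plus strand) and Cln3 (chr7:126583187-126583486, minus strand) hold it too, and passed the test for cuprizone on Covi-Ox but not on chow. Lamp1 (chr8:13158911-13159210, plus strand) holds 4 copies and passed no test, and Pld3 (chr7:27553169-27553468, minus strand) rose in both WT cuprizone comparisons with no copy in this window, as did Gusb and Lipa, which are not shown. Each is written 5′ to 3′ in the gene's direction, with CACGTG in capitals.
Gla: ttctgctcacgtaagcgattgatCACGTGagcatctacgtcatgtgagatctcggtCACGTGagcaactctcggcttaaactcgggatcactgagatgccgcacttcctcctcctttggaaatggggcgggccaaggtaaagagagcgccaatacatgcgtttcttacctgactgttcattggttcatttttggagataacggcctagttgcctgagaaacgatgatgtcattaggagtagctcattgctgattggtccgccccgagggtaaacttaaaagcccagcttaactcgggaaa
Gaa: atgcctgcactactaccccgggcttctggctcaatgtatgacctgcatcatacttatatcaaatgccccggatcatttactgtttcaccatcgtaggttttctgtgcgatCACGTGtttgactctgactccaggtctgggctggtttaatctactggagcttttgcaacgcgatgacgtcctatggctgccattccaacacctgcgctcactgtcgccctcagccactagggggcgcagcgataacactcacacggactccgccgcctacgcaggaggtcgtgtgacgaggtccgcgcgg
Glb1: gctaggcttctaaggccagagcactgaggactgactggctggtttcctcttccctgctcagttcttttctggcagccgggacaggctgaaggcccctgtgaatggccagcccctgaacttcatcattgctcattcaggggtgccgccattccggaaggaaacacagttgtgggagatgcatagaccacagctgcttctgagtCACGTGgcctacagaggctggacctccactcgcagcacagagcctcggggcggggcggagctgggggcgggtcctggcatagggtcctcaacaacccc
Cln3: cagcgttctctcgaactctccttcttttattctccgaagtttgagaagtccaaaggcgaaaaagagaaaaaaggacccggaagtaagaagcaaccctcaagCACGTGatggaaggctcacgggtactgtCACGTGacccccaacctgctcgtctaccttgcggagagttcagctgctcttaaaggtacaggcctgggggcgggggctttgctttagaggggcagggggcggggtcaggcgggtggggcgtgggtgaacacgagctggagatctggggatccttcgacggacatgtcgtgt
Lamp1: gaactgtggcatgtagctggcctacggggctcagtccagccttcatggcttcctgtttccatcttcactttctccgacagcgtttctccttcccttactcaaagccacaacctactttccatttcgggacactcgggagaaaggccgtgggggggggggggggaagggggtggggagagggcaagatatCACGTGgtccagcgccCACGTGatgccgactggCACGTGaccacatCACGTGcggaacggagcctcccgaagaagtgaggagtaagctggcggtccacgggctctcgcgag
Pld3: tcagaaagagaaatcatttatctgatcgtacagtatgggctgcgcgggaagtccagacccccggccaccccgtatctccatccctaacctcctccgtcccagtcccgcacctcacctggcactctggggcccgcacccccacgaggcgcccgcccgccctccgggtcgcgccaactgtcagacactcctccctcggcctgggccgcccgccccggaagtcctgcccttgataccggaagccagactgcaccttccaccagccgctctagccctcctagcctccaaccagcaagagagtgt
Gla held 2 copies, each within TCACGTGA, and so was 1 of the 2 copies in Cln3. Cln3 has a further promoter in the table, at chr7:126585768-126586067, without the core.

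Values are the authors' RMA intensities on a linear scale, and all differences are on the log2 scale with the standard error of the model. A probe set's intensity is compared between arrays and never with that of another gene. A gene is called where limma's Benjamini-Hochberg adjusted p, taken over all 11830 genes, was under 0.05. In bulk RNA, fewer cells of a type and less RNA per cell cannot be told apart.

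Array medians lay between 36.1 and 38.6. Trem2 itself read 1022 to 1724 on the WT arrays and 84.5 to 114 on the KO arrays, as the genotype labels say. Microglial markers (9 of 10 measured, all well above the array medians, such as P2ry12 at 2541 to 3713) summed to 26293 to 27137 in WT control and 21799 to 24364 in WT cuprizone, and to 26634 to 26970 in WT Covi-Ox and 20472 to 20928 in WT both. Neutrophil markers (7 of 7 measured) summed to 3237 to 3249 in WT control, 672 to 2344 in WT cuprizone, 160 to 230 in WT Covi-Ox and 345 to 516 in WT both, with Ly6g at 7.28 to 14.2 on all arrays. Border macrophage markers (7 of 7) summed to 2779 to 2874 in WT control, 1606 to 2139 in WT cuprizone, 2339 to 2949 in WT Covi-Ox and 1350 to 1718 in WT both. Genes of the response to tissue dissociation summed to 17145 on WT cuprizone array 3, 22606 on KO cuprizone array 2 and 24180 on KO cuprizone array 3, against 38640 to 46650 on the other 19 arrays. Endothelial markers (6 of 6) summed to 180 to 202 in WT control and 205 to 292 in WT cuprizone, and to 172 to 212 in WT Covi-Ox and 243 to 290 in WT both. In KO control and KO cuprizone, microglial markers summed to 26763 to 27843 and 25674 to 28333, neutrophil markers to 1937 to 2019 and 1031 to 3282, border macrophage markers to 2300 to 2366 and 1234 to 2901, and endothelial markers to 177 to 198 and 175 to 208. The part of these markers and arrays in the results was not tested. For the cuprizone comparisons on chow, counts, medians and the genes that moved most are also given without these 3 arrays.

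Cuprizone raised 7 of the 46 lysosomal genes in WT microglia and lowered none. The 7 were the hydrolases Gla, Pld3, Gusb, Gaa and Lipa, the cofactor Gm2a and the pump subunit Atp6v0d2. Of all genes tested, 2.5% were called in this comparison, 1.8% as higher and 0.702% as lower. Atp6v0d2 passed the filter only through the arrays where it was high and so had to differ, which leaves 6 genes to read against that share. The median difference of the 46 genes was 0.21, with 40 of them positive, against a median of -0.02 over all genes, of which 5560 of 11830 were positive. All WT cuprizone arrays lay above both WT control arrays for 25 of the 46 and below both for 3, where 15.3% and 17.6% of all genes did so. Atp6v0d2 is among the 25 and is left out of that reading too.

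Gla, which encodes alpha-galactosidase A, the enzyme that removes terminal galactose from globosides, read 77.8 and 110 in WT control and 216, 230 and 369 in WT cuprizone. The groups were well apart, and the increase was 2.85-fold (1.51 ± 0.19, limma adjusted p = 1.09e-04). Pld3, a phospholipase D family member that acts as a lysosomal exonuclease, read 623 and 705 in WT control and 1028, 1124 and 1805 in WT cuprizone. Its increase was 1.93-fold (0.95 ± 0.18, limma adjusted p = 0.00519), again without overlap between the groups.

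Gusb, beta-glucuronidase, read 288 and 298 in WT control and 395, 407 and 623 in WT cuprizone (0.66 ± 0.17, limma adjusted p = 0.0404). Gaa, the acid alpha-glucosidase that degrades glycogen, read 161 and 192, then 228, 256 and 354 (0.64 ± 0.15, limma adjusted p = 0.0267). Lipa, the acid lipase that hydrolyses cholesteryl esters and triglycerides, read 296 and 411, then 488, 485 and 599 (0.58 ± 0.14, limma adjusted p = 0.0291). For all 3 enzymes each cuprizone array was above both controls, and array 3 of the cuprizone group was the highest.

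Glb1, beta-galactosidase, and Galc, which breaks down galactosylceramide, a main lipid of myelin, did not pass the test on chow. Glb1 read 222 and 186 in WT control and 262, 238 and 366 in WT cuprizone (0.48 ± 0.17, limma adjusted p = 0.154). Galc read 85.6 and 96.0, then 106, 105 and 195 (0.51 ± 0.22, limma adjusted p = 0.241). Neither gene's groups overlapped, and for Galc most of the difference came from array 3.

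Lgmn, the asparaginyl endopeptidase legumain and the hydrolase with the highest mean, read 3537 and 3590 in WT control and 3652, 3570 and 3227 in WT cuprizone (-0.03 ± 0.10, limma adjusted p = 0.911). Its groups overlapped. Among the 13 hydrolases that passed no test in any of the 14 comparisons, differences ran from -0.25 for Ids, which removes sulfate from heparan and dermatan sulfate, to 0.30 for Man2b1, a lysosomal alpha-mannosidase. Of these, 11 were positive and the median was 0.12. They include Arsa, which desulfates the myelin lipid sulfatide (0.24 ± 0.22), Hexa (0.18 ± 0.13) and the ceramidase Asah1 (0.12 ± 0.15). Manba (0.26), Pla2g15 (0.19), Smpd1 (0.14), Tpp1 (0.06), Idua (0.05), Arsb (0.04), Ppt1 (0.03) and Sgsh (-0.14) completed the 13.

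All 4 soluble cofactors had every WT cuprizone array above both controls, but 1 passed the test. Gm2a, the activator that lifts the ganglioside GM2 to its enzyme, read 554 and 545 in WT control and 800, 844 and 1170 in WT cuprizone (0.75 ± 0.20, limma adjusted p = 0.0495). Npc2, which hands cholesterol to NPC1, read 2076 and 2042, then 2400, 2581 and 2833 (0.34 ± 0.12, limma adjusted p = 0.170). Grn, which encodes progranulin and is the cofactor with the highest mean, read 4648 and 4394, then 5003, 5047 and 5639 (0.21 ± 0.09, limma adjusted p = 0.264). Psap, the precursor of the saposins, differed by 0.33 ± 0.10 with a limma adjusted p of 0.0905.

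None of the 10 membrane proteins was called. Their median difference was 0.18 and 8 of the 10 were positive. Npc1, the cholesterol exporter, had the largest difference (0.36 ± 0.17), and Scarb2, the receptor that carries beta-glucocerebrosidase to lysosomes, differed by 0.25 ± 0.11. Lamp1 (0.23 ± 0.11) and Cd68 (0.21 ± 0.09), abundant glycoproteins of the lysosomal membrane, had all cuprizone arrays above the controls, while Lamp2 did not (-0.06 ± 0.09). Laptm5, the membrane protein with the highest mean, read 7855 and 7840 in WT control and 7815, 7793 and 7545 in WT cuprizone, a difference of -0.02 ± 0.08. Mcoln1 (0.20), Cln3 (0.16), Laptm4a (0.14) and Ctns (0.10) completed the class.

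Among the 10 measured pump subunits, 9 differences were positive, that of Atp6v0d2 included, and 1 gene was called. Atp6v0d2, the d2 form of a subunit of the membrane sector that is best known from osteoclasts, read 13.1 and 13.8 in WT control and 24.8, 25.1 and 61.2 in WT cuprizone (1.33 ± 0.27, limma adjusted p = 0.0114). It lay above its array's median on 4 of the 22 arrays, WT cuprizone array 3 and the 3 WT both arrays, and passed the filter through them. Its differences and p-values, here and below, are descriptions, since a low group has only an upper bound. Its close relative Atp6v0d1, the form found in most cells, differed by 0.10 ± 0.15. Atp6v1b2, a subunit of the ATP-binding sector, read 264 and 295, then 355, 393 and 408 (0.46 ± 0.15, limma adjusted p = 0.123), and the catalytic subunit Atp6v1a read 274 and 266, then 349, 375 and 345 (0.40 ± 0.15, limma adjusted p = 0.166). Atp6ap1, an accessory subunit and the pump gene with the highest mean, read 937 and 967, then 1177, 1064 and 1256 (0.29 ± 0.12). For these 3 subunits the cuprizone arrays did not overlap the controls. Atp6v1c1 (0.29), Atp6v0b (0.15), Atp6v1d (0.10), Atp6v0a1 (0.07) and Atp6v1h (-0.15) were not called.

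WT cuprizone array 3 was the highest of its group for 32 of the 46 genes, and arrays 1 and 2 for 7 each. Without the 3 arrays low in dissociation genes, 3 genes were called: Gla (1.27), Pld3 (0.70) and Atp6v0d2 (0.89). The other 4 stayed positive and lost their calls: Gm2a stood at 0.58, Lipa at 0.48, Gaa at 0.46 and Gusb at 0.45, with limma adjusted p-values of 0.121, 0.140, 0.108 and 0.148. Galc, uncalled with all arrays, stood at 0.22 and Glb1 at 0.30. The median difference of the 46 genes was then 0.18, with 37 positive. A fit of the 5 arrays of this comparison alone called 0 of the 46, and leaving out WT control array 1 left 1 call, Gla.

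**Figure D1:**
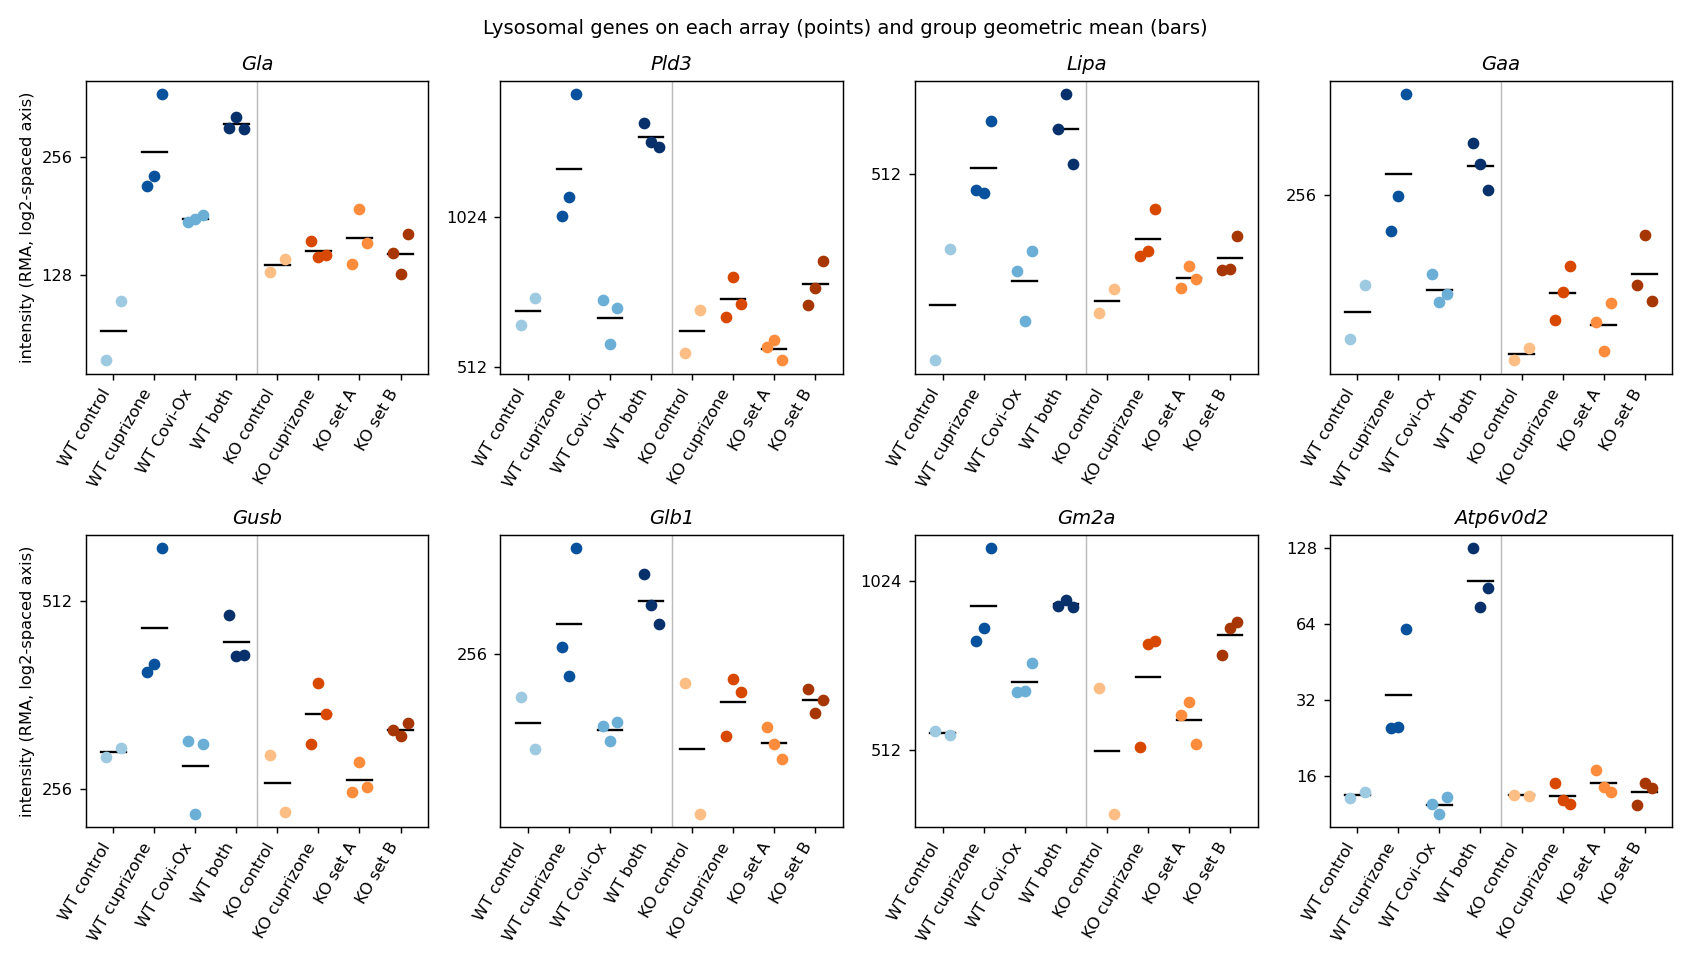
Intensity of 8 lysosomal genes on each of the 22 arrays. The vertical axis is RMA intensity with log2 spacing and differs between panels, points are arrays in 8 groups (blue WT, orange KO), and bars are group geometric means. Gla read 216 to 369 in WT cuprizone and 142 to 156 in KO cuprizone, and Atp6v0d2 74.4 to 128 in WT both.

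In KO microglia no lysosomal gene was called for cuprizone by limma, and 12 of the 46 had an unadjusted p under 0.05. Few genes of any kind were called in this comparison, 0.0423% of those tested. The median difference of the 46 genes was 0.17, with 37 positive, against 0.00 over all genes. All KO cuprizone arrays lay above both controls for 10 of the 46 and below both for 3, where 10.6% and 11% of all genes did so.

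Gla read 131 and 141 in KO control and 156, 142 and 144 in KO cuprizone (0.12 ± 0.19, 95% interval -0.27 to 0.51). Pld3 read 546 and 666, then 644, 777 and 684 (0.21 ± 0.18, interval -0.16 to 0.58). Atp6v0d2 read 13.5 and 13.4, then 15, 12.9 and 12.4 (-0.01 ± 0.27, interval -0.58 to 0.56). For Gla the KO cuprizone arrays lay just above both controls, and for Pld3 and Atp6v0d2 the groups overlapped.

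For the other genes called in WT the values in KO stood closer. Gaa read 151 and 157 in KO control and 171, 188 and 204 in KO cuprizone (0.28 ± 0.15). Lipa read 340 and 365, then 402, 408 and 462 (0.27 ± 0.14), and Gusb 290 and 235, then 303, 379 and 337 (0.37 ± 0.17). In these 3 genes the KO cuprizone arrays were above both KO controls, with limma adjusted p-values of 0.432, 0.426 and 0.342. Gm2a overlapped, at 659 and 394 in KO control and 518, 790 and 801 in KO cuprizone (0.44 ± 0.20). Its high values were on arrays 2 and 3, both low in dissociation genes. Without these arrays and WT cuprizone array 3, Gm2a stood at 0.02, Gaa at 0.16, Lipa at 0.19, Gusb at 0.21, Gla at 0.20 and Pld3 at 0.09.

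The largest positive differences in KO were those of Idua and Mcoln1, neither of them called. Idua, an enzyme of heparan sulfate breakdown, differed by 0.72 ± 0.19 (limma adjusted p = 0.135) in KO and 0.05 ± 0.19 in WT. Mcoln1, the calcium channel of the lysosomal membrane, differed by 0.48 ± 0.16 in KO and 0.20 ± 0.16 in WT, and the phospholipase Pla2g15 by 0.43 ± 0.16 and 0.19 ± 0.16. Pla2g15 read 420 and 351 in KO control and 405, 535 and 635 in KO cuprizone, with the high values on arrays 2 and 3, and without the 3 arrays low in dissociation genes it stood at 0.08 in KO and 0.28 in WT. All KO cuprizone arrays lay above both controls for Idua and Mcoln1. Ids had the largest negative difference (-0.44 ± 0.13, limma adjusted p = 0.159) and was below both controls in WT as well. KO control array 2 was lower than KO control array 1 for 28 of the 46 genes. The proton pump had the lowest class median in KO (0.09, 6 of 10 positive), next to 0.21 for hydrolases, 0.23 for cofactors and 0.17 for membrane proteins. Without the 3 arrays low in dissociation genes, 1 KO cuprizone array remained, assumed to vary like the other groups. The median of the 46 genes was then 0.04 with 27 positive. By class it was 0.07 for hydrolases, 0.06 for cofactors, -0.01 for the pump and -0.05 for membrane proteins, so the pump was no longer the lowest. Idua then stood at 0.63, Mcoln1 at 0.43, Ids at -0.58 and Atp6v1a at 0.79 (limma adjusted p = 0.0563). Leaving out KO control array 1 gave 8 calls.

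The other genes called in some comparison, and the highest-mean gene of each role, overlapped between the KO groups with 2 exceptions. Glb1 read 232 and 150 in KO control and 195, 235 and 226 in KO cuprizone, and Galc 75.2 and 95.8, then 112, 115 and 79.3. Lgmn read 3768 and 3582, then 3470, 4026 and 4393, and Npc2 2171 and 1553, then 2013, 2332 and 2375. The exceptions were Grn, at 4560 and 4076, then 4631, 5161 and 4934 (0.19 ± 0.09), and Cln3, at 247 and 256, then 237, 239 and 242 (-0.07 ± 0.13). Laptm5 read 7787 on both KO controls, then 7669, 8302 and 7950. The pump genes Atp6v1a (224 and 178, then 345, 216 and 271) and Atp6ap1 (923 and 981, then 958, 1090 and 1150) overlapped too.

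The difference between the genotypes in their response to cuprizone was tested directly. Gla was the gene called among the 46: its cuprizone difference was smaller in KO by -1.39 ± 0.26 (limma adjusted p = 0.0292, 95% interval -1.94 to -0.84), where 0.228% of all genes were called, 0.186% as lower and 0.0423% as higher. Gla was also higher in KO control than in WT control (0.55 ± 0.20, limma adjusted p = 0.349), with both KO arrays above both WT arrays, so the WT difference starts from a lower level. Without the 3 arrays low in dissociation genes the difference for Gla was -1.06 and was not called (limma adjusted p = 0.144). The call was also lost without WT control array 1, KO control array 2, KO cuprizone array 2 or KO cuprizone array 3, and in a fit of the 10 arrays compared (limma adjusted p = 0.554). Atp6v0d2 (-1.33 ± 0.39, limma adjusted p = 0.232) and Pld3 (-0.73 ± 0.25, limma adjusted p = 0.331) did not pass. The cuprizone difference was smaller in KO for 30 of the 46 genes, with a median of -0.07, and positive in both genotypes for 33. Of the KO minus WT differences 16 were positive. Without the 3 arrays low in dissociation genes, which leaves 1 KO cuprizone array, their median was -0.20 and 12 were positive. Across the 46 genes, which share arrays and are not independent, the WT and KO differences had a Pearson r of 0.220 and a Spearman rho of 0.327. Both values include Gla and Atp6v0d2, and Atp6v0d2 passed the filter through WT arrays alone. They were not computed without these genes, so they are not set against the correlations between the diets given below.

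Under cuprizone, 6 of the 46 genes were lower in KO than in WT microglia and none was higher, where 3.8% of all genes were called, 2.98% as lower and 0.82% as higher. This comparison shares the WT cuprizone arrays with the one on chow above. The 6 genes were Pld3 (-0.87 ± 0.16, limma adjusted p = 0.00345), Gla (-0.84 ± 0.17, 0.00700), Gaa (-0.55 ± 0.13, 0.0253), Neu1 (-0.48 ± 0.13, 0.0362), Atp6v0d2 (-1.33 ± 0.24, 0.00361) and Atp6v1b2 (-0.55 ± 0.14, 0.0304). For each of them all KO cuprizone arrays lay below all WT cuprizone arrays. In all, 14 of the 46 genes did so and none lay above, where 11.6% of all genes lay below and 9.04% above. Atp6v0d2 was tested only because it was high on WT cuprizone array 3 and the WT both arrays. It is therefore left out when the 6 and the 14 are read against those shares.

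Neu1, a sialidase, differed from the others in its pattern. It read 98.0, 97.7 and 91.7 in WT cuprizone and 85.5, 63.9 and 59.1 in KO cuprizone, against 87.2 and 77.0 in WT control and 77.0 and 87.5 in KO control. Its low values were on KO cuprizone arrays 2 and 3, both low in dissociation genes. Atp6v1b2 read 233, 241 and 326 in KO cuprizone, with 286 and 223 in KO control.

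All 10 pump differences between KO and WT under cuprizone were below 0, with a median of -0.24, and all 4 cofactor differences were, with a median of -0.20. The 10 and their median include Atp6v0d2, whose direction here follows from the filter and is not read. The hydrolases had a median of -0.09 and the membrane proteins 0.01, while that of all genes was -0.01. The median of the 46 genes was -0.14 with 12 positive. Without the 3 arrays low in dissociation genes, which leaves 1 KO cuprizone array, it was -0.20 with 7 positive. The medians by role were then -0.20 for hydrolases, -0.32 for cofactors, -0.12 for membrane proteins and -0.22 for the pump. Without the 3 arrays low in dissociation genes, none of the 6 was called: Pld3 stood at -0.74 (limma adjusted p = 0.0502), Gla at -0.51 (0.321), Atp6v0d2 at -0.73 (0.182), Atp6v1b2 at -0.68 (0.120), Gaa at -0.49 (0.204) and Neu1 at -0.19 (0.698). A fit of these 6 arrays alone called 0 of the 46, and under quantile normalization the median of the 46 genes was -0.07 with 19 positive.

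On chow without cuprizone, no lysosomal gene was called between the genotypes by limma, and 5 had an unadjusted p under 0.05, where 0.0676% of all genes were called. The median difference was -0.07. Both KO arrays lay above both WT arrays for 6 of the 46 and below for 8, where 15% and 21.7% of all genes did so. Idua had the largest difference, at 189 and 232 in WT control and 157 and 99.6 in KO control (-0.74 ± 0.21, limma adjusted p = 0.262). Gla was higher, as given above, and Atp6v1a read 274 and 266 in WT control and 224 and 178 in KO control (-0.44 ± 0.16, limma adjusted p = 0.348).

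**Figure D2:**
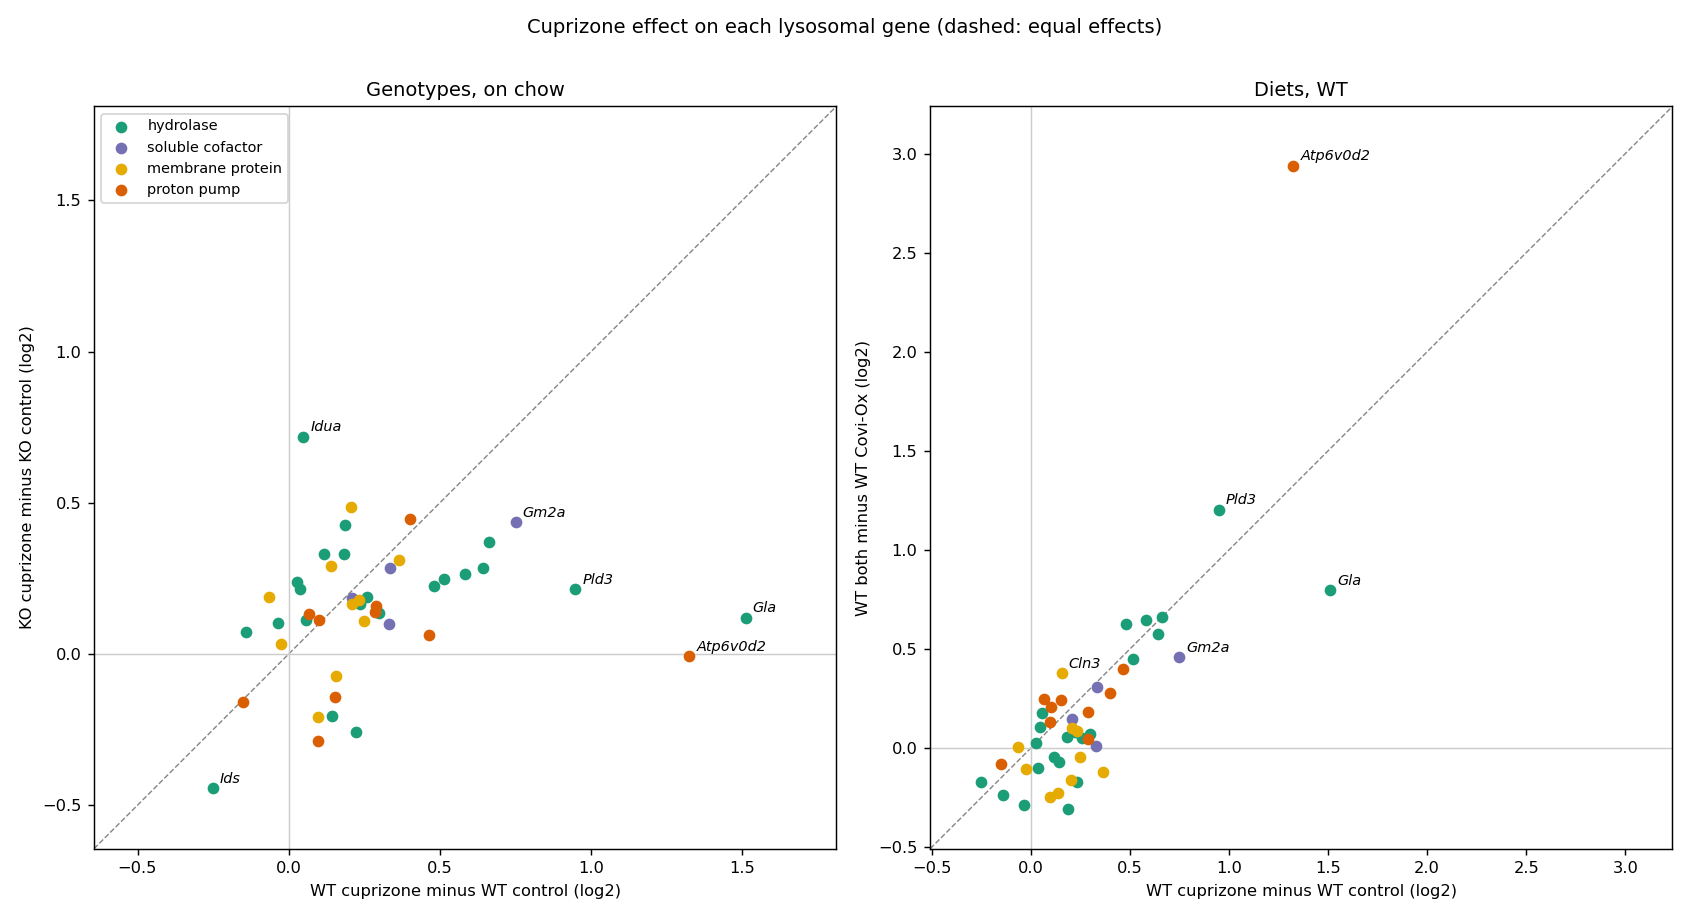
Cuprizone differences (log2) of the 46 lysosomal genes, coloured by role, with the WT difference on chow on the horizontal axis and the KO difference on chow (left) or the WT difference on Covi-Ox (right) on the vertical axis. Gla lies at 1.51 in WT and 0.12 in KO, and Atp6v0d2 at 1.33 on chow and 2.94 on Covi-Ox.

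For Covi-Ox alone, no lysosomal gene of WT microglia was called by limma. Of the 46, 3 had an unadjusted p under 0.05, and 0.0338% of all genes were called. The median difference was 0.05. Gla read 174, 178 and 182 in WT Covi-Ox, all above the controls (0.94 ± 0.19, limma adjusted p = 0.0834). Cln3, a membrane protein mutated in juvenile Batten disease, read 217, 213 and 192, all below the controls at 266 and 219 (-0.22 ± 0.13).

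On the Covi-Ox diet, cuprizone raised 8 of the 46 genes in WT microglia and lowered none, where 7.82% of all genes were called, 4.65% as higher and 3.17% as lower. Pld3 read 696, 569 and 671 in WT Covi-Ox and 1582, 1448 and 1417 in WT both (1.20 ± 0.16, limma adjusted p = 5.44e-05). Gla read 304, 324 and 301 in WT both (0.80 ± 0.17, limma adjusted p = 0.00482). For both genes the 3 WT both arrays were close to one another and far from the 3 Covi-Ox arrays.

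Lipa read 385, 332 and 408 in WT Covi-Ox and 585, 649 and 528 in WT both (0.65 ± 0.12, limma adjusted p = 0.00237). Gusb read 306, 233 and 302, then 486, 418 and 420 (0.66 ± 0.15, limma adjusted p = 0.00842). Gaa read 199, 182 and 186, then 303, 283 and 260 (0.58 ± 0.13, limma adjusted p = 0.0102). These 3 enzymes had also been called on chow, with differences of like size.

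Glb1 read 201, 191 and 204 in WT Covi-Ox and 335, 302 and 284 in WT both (0.63 ± 0.15, limma adjusted p = 0.0142). Cln3 was the membrane protein called, at 297, 277 and 237 in WT both (0.38 ± 0.11, limma adjusted p = 0.0461). Its WT both values overlapped those of WT control, and the Covi-Ox arrays lay below both groups. The call for Cln3 was lost under 4 of 9 alternatives and in 13 of the 22 fits with 1 array left out. Atp6v0d2 read 12.4, 11.3 and 13.3, then 128, 74.4 and 88.6 (2.94 ± 0.24, limma adjusted p = 1.79e-07). All Covi-Ox values lay below the array medians and all WT both values above, which is how it passed the filter, so the call describes that choice and 7 genes are left to read against the share above.

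The cofactors and the other pump subunits did not pass. Gm2a read 649, 652 and 731 in WT Covi-Ox and 922, 946 and 921 in WT both (0.46 ± 0.18, limma adjusted p = 0.130), and Npc2 read 2272, 2096 and 2110, then 2575, 2825 and 2632 (0.31 ± 0.11, limma adjusted p = 0.0976). Grn read 4750, 4618 and 4597, then 5180, 5227 and 5080 (0.15 ± 0.08, limma adjusted p = 0.328). Of the pump, 9 of 10 differences were positive with a median of 0.23, both of which include Atp6v0d2. Of the uncalled subunits Atp6v0a1, of the membrane sector, came nearest to the threshold (0.25 ± 0.08, limma adjusted p = 0.0797).

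Atp6v1b2 read 301, 271 and 300 in WT Covi-Ox and 382, 386 and 380 in WT both (0.40 ± 0.14, limma adjusted p = 0.0870), and Atp6v1a 318, 324 and 329, then 424, 398 and 357. Both groups were apart for these 2 subunits, while Atp6ap1 overlapped at 1080, 945 and 1065, then 1104, 1063 and 1019.

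The uncalled hydrolases ran from -0.31 for Pla2g15 to 0.45 for Galc. Galc read 101, 76.9 and 102 in WT Covi-Ox (0.45 ± 0.20, limma adjusted p = 0.182), and Neu1 91.3, 84.6 and 76.3, then 86.3, 91.2 and 88.8 in WT both. Galc lay above the Covi-Ox arrays on all WT both arrays. The 10 membrane proteins had a median of -0.08 with 4 positive, from -0.25 for the cystine exporter Ctns to 0.38 for Cln3. Laptm5 read 8047, 8041 and 7821 in WT Covi-Ox and 7137, 7672 and 7428 in WT both (-0.11 ± 0.08). Lgmn read 3774, 3666 and 3882, then 3077, 3085 and 3123, all lower but not called (-0.29 ± 0.09, limma adjusted p = 0.0577). The median of the 46 genes was 0.08 with 31 positive, against -0.03 over all genes, and 0.00 with 23 positive under quantile normalization.

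The comparisons of cuprizone on chow and on Covi-Ox share no WT arrays, although limma's spread is pooled over all. They had 6 called genes in common (Gla, Pld3, Lipa, Gaa, Gusb and Atp6v0d2), 85.7% of the 7 on chow and 75% of the 8 on Covi-Ox. Over all genes tested, 200 were called in both, 67.6% of the 296 on chow and 21.6% of the 925 on Covi-Ox. Atp6v0d2 was called in both by way of the filter, so the 85.7% and 75% are not read against these shares. Without it, the shared genes are Gla, Pld3, Lipa, Gaa and Gusb. Across the 46 genes the differences had a Pearson r of 0.787 and a Spearman rho of 0.672, and 30 genes were positive in both. Without Gla and Atp6v0d2, r was 0.790 and rho 0.626. No gene was called for a difference between the diets in the response to cuprizone by limma, while 5 had an unadjusted p under 0.05 and 0.0254% of all genes were called. Gla was smaller on Covi-Ox by -0.71 ± 0.25 (limma adjusted p = 0.663), and Atp6v0d2 larger by 1.61 ± 0.37 (limma adjusted p = 0.189).

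Between WT both and WT cuprizone, Atp6v0d2 alone of the 46 passed the threshold (1.49 ± 0.24, limma adjusted p = 0.0130), at 128, 74.4 and 88.6 against 24.8, 25.1 and 61.2, where 0.152% of all genes were called, 0.11% as higher and 0.0423% as lower. It was tested because it was high on these WT both arrays, so nothing is read from that call. The others differed by -0.30 to 0.23. Gla (0.23 ± 0.17) and Pld3 (0.21 ± 0.16) overlapped between these groups.

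The calls were set beside the promoter core. Of the 12 measured genes with CACGTG, 2 were called on chow, with a median difference of 0.22, and of the 28 without it 4 were called, with a median of 0.20. On Covi-Ox, 4 of the 12 were called (median 0.23) and 3 of the 28 (median 0.06). No test was made of these counts.

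**Figure D3:**
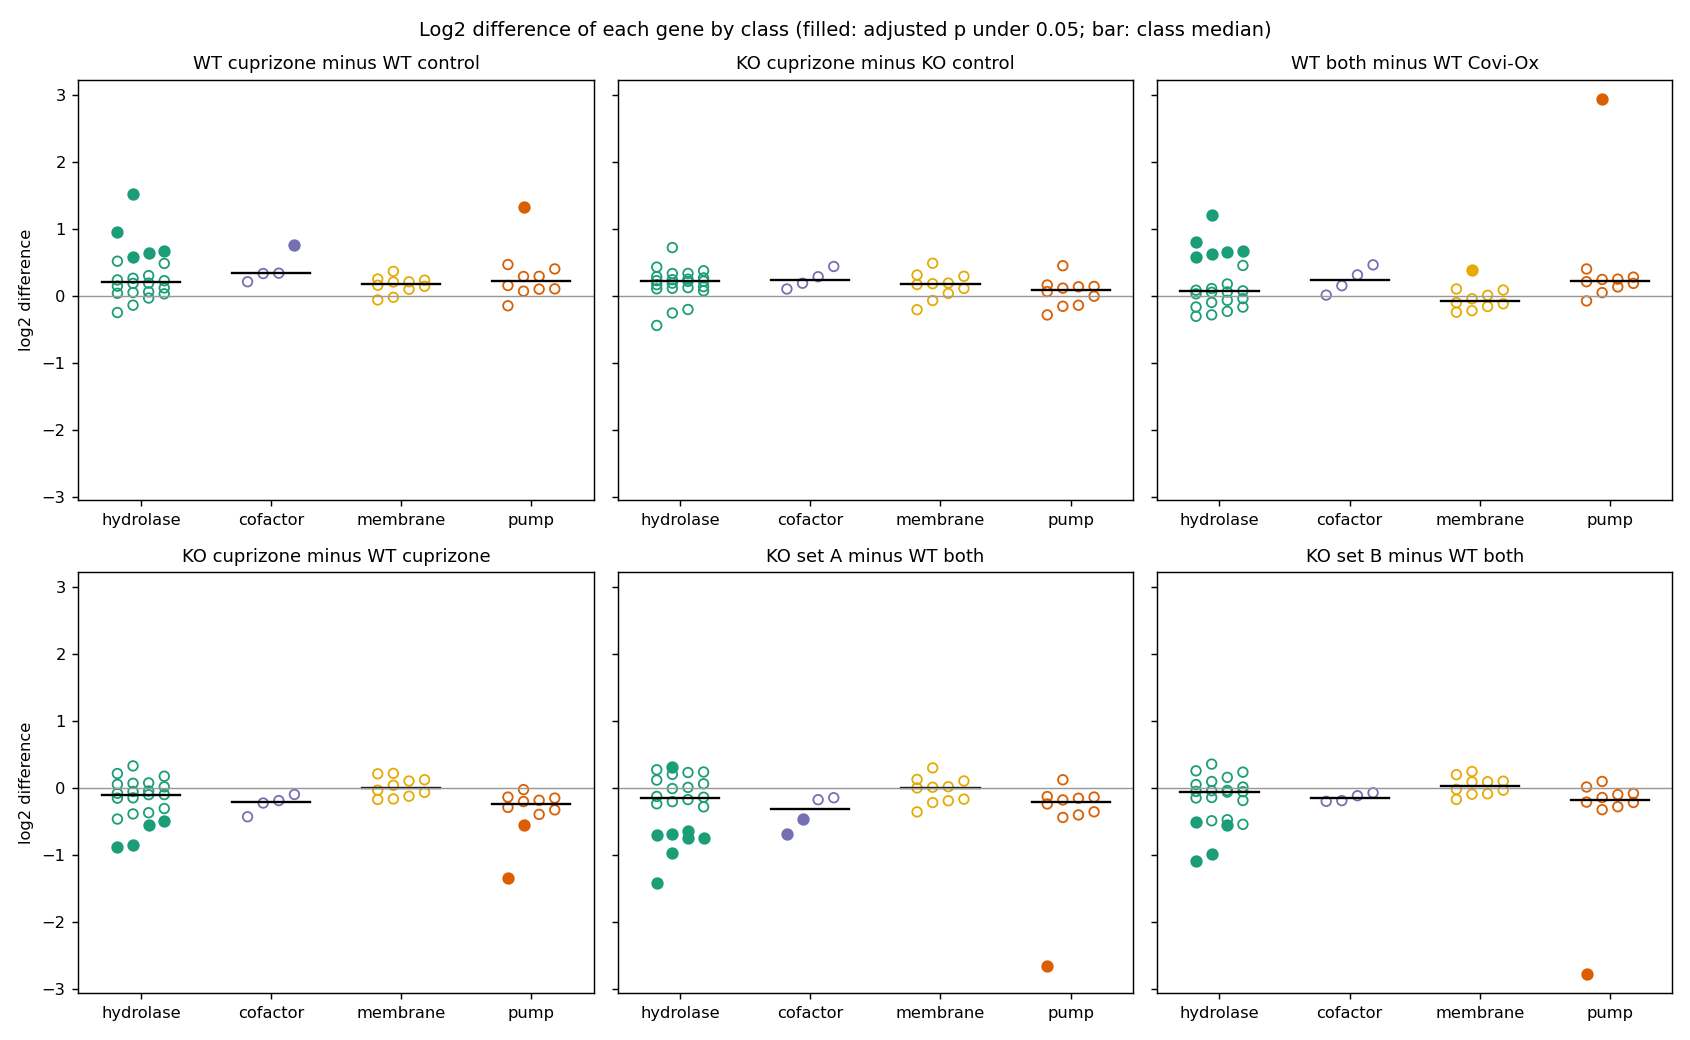
Log2 difference of each gene by role in 6 comparisons, with filled points for an adjusted p under 0.05 and a bar at the median of the role. Hydrolases, 22 of the 46 genes, hold 5 of the 7 called in WT cuprizone minus WT control (2.5% of all genes called). That is 22.7% of hydrolases, next to 25% of the 4 cofactors. They hold 6 of the 8 in WT both minus WT Covi-Ox (7.82% of all genes). The 7 and the 8 include Atp6v0d2, called by way of the filter. No gene is filled in KO cuprizone minus KO control (0.0423% of all genes).

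The 2 KO sets with contradictory labels were each compared with KO control and with WT both, and these comparisons share those control arrays. Against KO control, set A had no called gene by limma (4 with an unadjusted p under 0.05, 0.0338% of all genes called). Set B had 1, Atp6v1a, where 0.744% of all genes were called, 0.549% as higher and 0.194% as lower. Atp6v1a read 224 and 178 in KO control, 287, 338 and 299 in set A (0.62 ± 0.15, limma adjusted p = 0.119) and 342, 340 and 337 in set B (0.77 ± 0.15, limma adjusted p = 0.0267). The set B arrays were alike, and KO control array 2 was the lowest of all 22 arrays. Without KO control array 1 set B had 8 calls, without KO control array 2 or any set B array it had 0, and in a fit of these 5 arrays 0.

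Gla read 137, 189 and 155 in set A and 145, 129 and 163 in set B, overlapping KO control in both. Pld3 read 561, 580 and 527 in set A, and 680, 739 and 837 in set B, all above KO control (0.31 ± 0.18, limma adjusted p = 0.453). Atp6v0d2 read 17.0, 14.5 and 13.8 in set A and 12.4, 15 and 14.4 in set B, next to 13.1 to 13.8 in the 4 chow control arrays. Gm2a read 591, 624 and 526 in set A and 754, 844 and 864 in set B (0.68 ± 0.20 against KO control, limma adjusted p = 0.132).

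Against WT both, set A had 10 lower genes and 1 higher, where 9.6% of all genes were called, 5.6% as lower and 4.01% as higher. Set B had 5 lower genes and none higher, where 3.89% were called, 2.62% as lower and 1.27% as higher. Both counts include Atp6v0d2, which was below the array medians on all 6 arrays of these sets and above them in WT both, so only its values above are given. Of the others, the differences furthest from 0 in set A were those of Pld3 (-1.41 ± 0.16) and Gla (-0.96 ± 0.17), with limma adjusted p-values of 5.50e-06 and 6.82e-04. In set B they were those of Gla (-1.09 ± 0.17) and Pld3 (-0.98 ± 0.16), with limma adjusted p-values of 3.48e-04 and 6.21e-04. Both sets share the WT both arrays, so their values are not independent.

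Lipa (-0.63 ± 0.12 in set A, -0.55 ± 0.12 in set B) and Gaa (-0.74 ± 0.13 and -0.50 ± 0.13) were called in both. Lipa read 366, 390 and 376 in set A and 386, 388 and 427 in set B. Gaa read 170, 155 and 181 in set A and 192, 225 and 182 in set B. All these arrays lay below the WT both arrays.

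In set A, Gusb (253, 283 and 258, a difference of -0.74 ± 0.15), Glb1 (201, 189 and 180, -0.69 ± 0.15), Galc (74.2, 74.8 and 88.6, -0.68 ± 0.20), Gm2a (-0.68 ± 0.18) and Npc2 (1934, 1882 and 2040, -0.46 ± 0.11) were also lower. In set B the same 5 genes differed by -0.47, -0.48, -0.54, -0.18 and -0.19 and were not called. Galc in WT both read 123, 120 and 137. Lgmn was the gene called higher in set A, at 3730, 3977 and 3876 (0.32 ± 0.09, limma adjusted p = 0.0286), and in set B it read 3541, 3797 and 3653 (0.24 ± 0.09, limma adjusted p = 0.173).

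The remaining called and highest-mean genes follow for both sets. Neu1 read 79.2, 89.6 and 102 in set A and 80.7, 91.0 and 88.6 in set B, and Cln3 194, 225 and 215, then 214, 241 and 269. Gusb in set B read 318, 311 and 326, Glb1 228, 210 and 220, Galc 92.7, 90.1 and 79.4, and Npc2 2382, 2411 and 2232. Grn read 4809, 4605 and 4373 in set A and 4939, 4939 and 4925 in set B. Laptm5 read 8054, 8358 and 7605, then 8031, 7773 and 7982. For the pump, Atp6v1b2 read 292, 296 and 264 in set A and 347, 336 and 249 in set B, and Atp6ap1 976, 1051 and 859, then 918, 1036 and 1075. The 2 sets overlapped for Neu1, Cln3, Galc, Laptm5, Atp6v1b2 and Atp6ap1, and set B was above set A for Gusb, Glb1, Npc2 and Grn.

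Between set B and set A no lysosomal gene was called by limma, and 3 had an unadjusted p under 0.05, where 0.00845% of all genes were called. The median difference was 0.09, with 30 of the 46 positive and all 4 cofactors among them. The largest was that of Gm2a (0.50 ± 0.18, 95% interval 0.13 to 0.87), for which all set B arrays were above all set A arrays, followed by Pld3 (0.43 ± 0.16, interval 0.10 to 0.76). Over all genes tested the median standard error here was 0.14, next to 0.18 for Gm2a and 0.16 for Pld3. Differences of the size seen for these genes were at the edge of what 3 arrays a group can show.

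A median over the 46 genes was also taken on each array, relative to each gene's mean over all arrays on the log2 scale. It was -0.11 and -0.10 in WT control and 0.10, 0.07 and 0.23 in WT cuprizone. In WT Covi-Ox it was 0.02, -0.06 and -0.01, and in WT both 0.06, 0.11 and 0.03. The WT cuprizone arrays were above the other WT arrays except those of WT both, with which they overlapped. In KO control it was -0.06 and -0.20, and in KO cuprizone -0.10, 0.09 and 0.08, where arrays 2 and 3, both low in dissociation genes, were the high ones. Set A had -0.09, -0.04 and -0.14, and set B -0.03, 0.02 and 0.00.

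**Figure D4:**
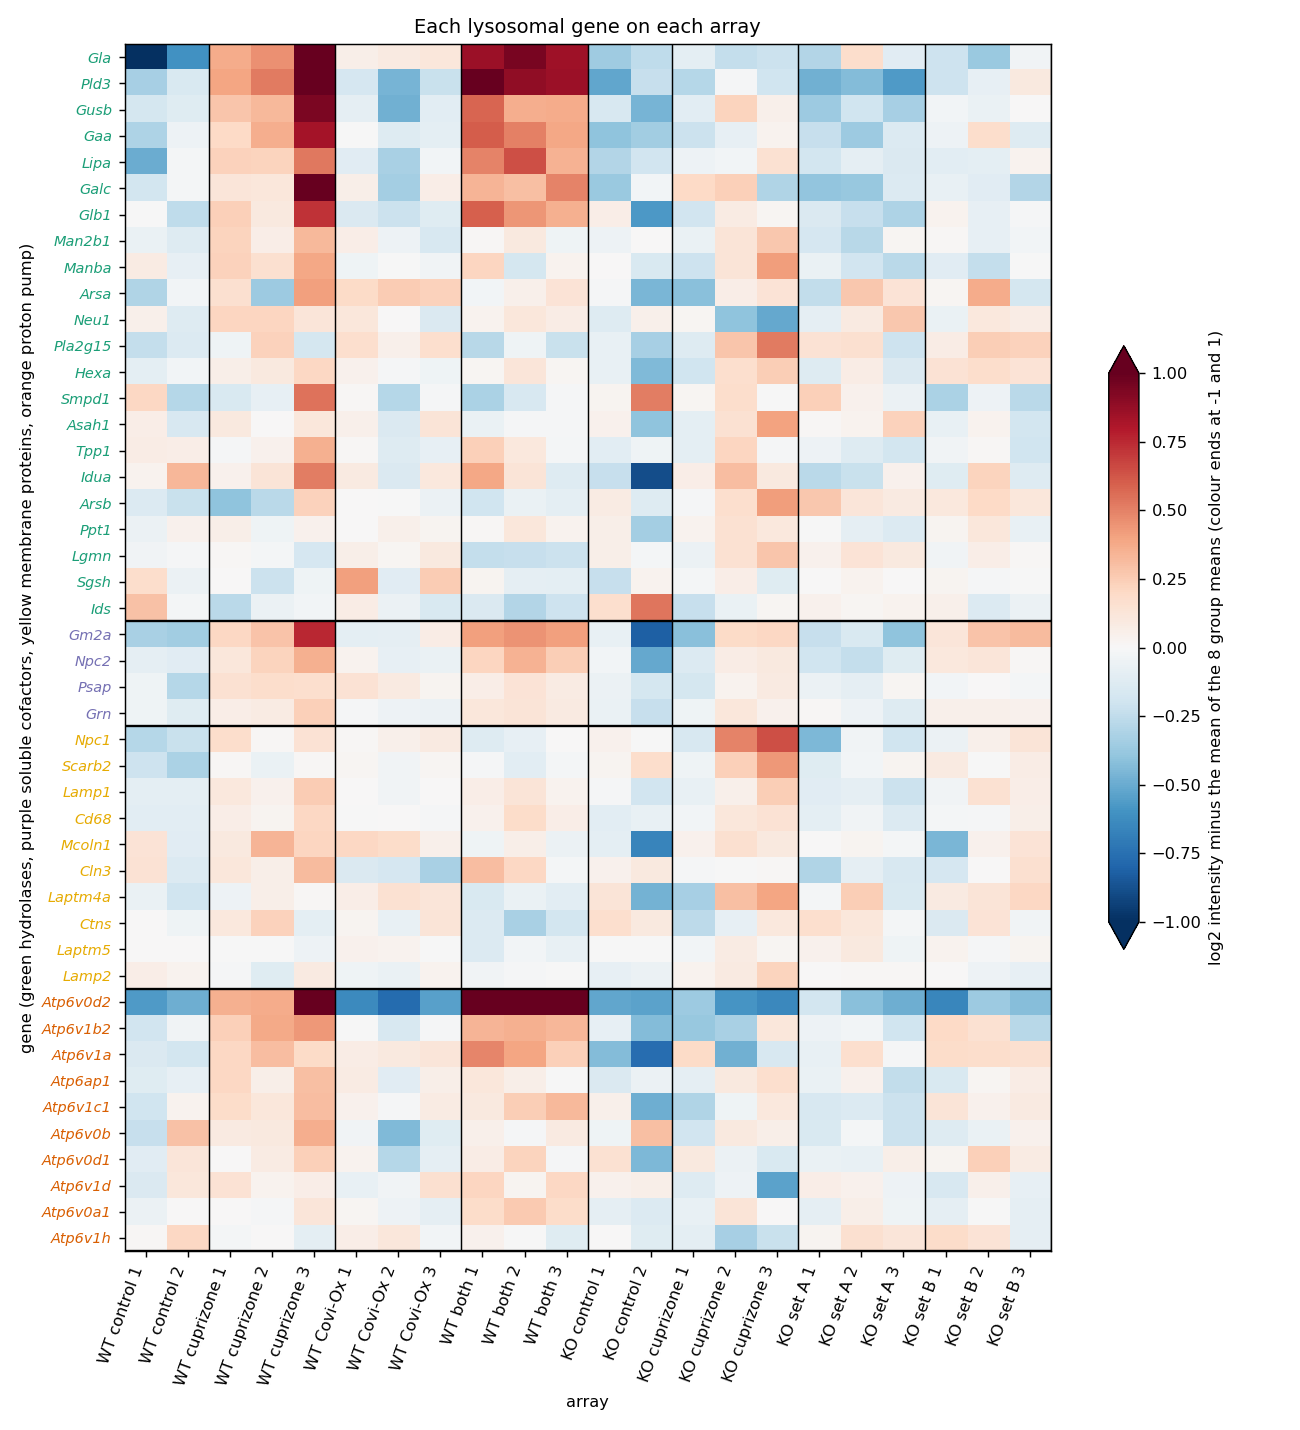
Log2 intensity of the 46 measured lysosomal genes (rows, grouped by role) on the 22 arrays (columns, grouped by diet and genotype), minus the mean of the 8 group means, with the colour ending at -1 and 1. Array 3 of WT cuprizone is the highest of its group for 32 of the 46 genes.

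Of the 46 genes, 15 were called in at least 1 of the 14 comparisons, where 14.1% of all genes tested were. They were 9 hydrolases, 2 cofactors, 1 membrane protein and 3 pump subunits. Atp6v0d2, whose calls follow from the filter, is 1 of the 3 and is not read against that share. The other 31 of the 46 were never called. Among these the highest array was 1.17 times the lowest for Laptm5 and 2.64 times for Idua. Over all arrays Lamp1 ran from 2045 to 2825, Lamp2 from 1671 to 2123, Cd68 from 3151 to 4002 and Laptm4a, a transmembrane protein of lysosomes and endosomes, from 1050 to 1912. The protease Tpp1 ran from 1066 to 1562 and the thioesterase Ppt1 from 926 to 1304. Npc1 read 530 and 512 in KO control and 461, 726 and 802 in KO cuprizone, with the high values on arrays 2 and 3, both low in dissociation genes. Its difference in KO was 0.31 ± 0.17, and -0.18 without the 3 arrays low in those genes.

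A list of 90 other lysosomal genes gave 72 that were tested (11 had no probe set of their own and 7 were below the filter). Cuprizone raised 8 of the 72 in WT microglia on chow and lowered none, with a median of 0.13, where 1.8% of all genes were called higher and 0.702% lower. They include the cathepsins Ctse (1.46 ± 0.35), Ctsz (0.72 ± 0.12), Ctsh (0.58 ± 0.14) and Ctsb (0.51 ± 0.11), proteases of the lysosome and endosome. The others were Naglu (0.65 ± 0.17), an enzyme of heparan sulfate breakdown, the serine carboxypeptidase Scpep1 (0.64 ± 0.12), the nutrient-sensing GTPase Rragd (0.60 ± 0.16) and the pump subunit Atp6v1f (0.58 ± 0.14). Without the 3 arrays low in dissociation genes 4 of the 72 were called, Ctse (0.90), Ctsz (0.60), Scpep1 (0.54) and Ctsb (0.47), and the median was 0.08.

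In KO microglia none of the 72 was called for cuprizone by limma, where 0.0423% of all genes were, and 18 had an unadjusted p under 0.05. Their median was 0.11, or 0.07 without those arrays. On Covi-Ox, cuprizone raised 13 and lowered 7 in WT microglia, where 4.65% and 3.17% of all genes were called. The 9 pump subunits tested among the 72 were split, with 2 raised and 2 lowered. Of these 9, 5 differences were positive, as on chow. The largest increases were those of Ctse (2.42 ± 0.31), the dipeptidyl peptidase Dpp7 (1.03 ± 0.18), the sulfatase Galns (0.96 ± 0.20) and Gnptab (0.82 ± 0.13), which makes the mannose phosphate tag that sorts hydrolases to lysosomes. Naglu (0.73 ± 0.15), Atp6v1f (0.65 ± 0.12), Ctsz (0.65 ± 0.11) and Mitf (0.53 ± 0.12), a relative of TFEB, followed. Under cuprizone, 7 of the 72 were lower in KO than in WT, among them Ctse (-1.20 ± 0.31), Rragd (-0.57 ± 0.14), Ctsz (-0.56 ± 0.11), Mitf (-0.53 ± 0.12), Gnptab (-0.53 ± 0.13) and Atp6v1f (-0.45 ± 0.12), and the sialomucin Cd164 was higher (0.33 ± 0.08), where 2.98% of all genes were called lower and 0.82% higher. Without the 3 arrays 1 of the 72 was called, Mitf (-0.89).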

How the data were processed

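The data are 22 Affymetrix MoGene 1.0 ST arrays, placed in 8 groups from the labels. The deposited table gives each probe set's linear intensity, which the authors obtained with RMA, per the submitters' processing notes, whose version is not given in the sources used here. RMA gives the arrays nearly one distribution, so a change in total RNA per cell cannot be seen. The number of arrays limits the precision. The table holds 28098 probe sets (2 missing cells), of which 21640 map to 1 gene in the platform's annotation, 1321 to several (left out), and the rest are unlisted there.

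Log2 was taken. A gene was kept if 2 or more arrays had it over their 50th percentile. Limma 3.58.1 in R 4.3.3 fitted 8 group means over the 22 arrays (14 residual degrees of freedom, prior 5.49). From it 14 comparisons were taken, with two-sided tests adjusted by Benjamini-Hochberg over 11830 genes. The code was tested on simulated data.

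The genes and lists were chosen with earlier results of these data known. Each array's value is printed for genes called in any comparison and for the highest-mean gene of each role; of the other lysosomal genes, up to 8 of the largest called changes are named in each cuprizone comparison. Genes named besides these were chosen after their values were seen. Replicate numbers did not pair the arrays. Alternatives were the replicate block, a fit of the compared arrays alone, other filters and scalings, and leaving out each array.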

Additional observations from a re-analysis of the deposited data

Results flagged for a closer look

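Gla stood out because its response to cuprizone differed between the genotypes by a test of the difference itself. The cuprizone difference was 1.51 in WT and 0.12 in KO, so that the KO difference was lower by -1.39 ± 0.26 (limma adjusted p = 0.0292). All 3 WT cuprizone arrays were higher than both WT controls, and the 3 KO cuprizone arrays, at 142 to 156, lay just above the KO controls at 131 and 141. The call was lost in a fit of the compared arrays alone (limma adjusted p = 0.554) and without any of the 4 single arrays named above. Without the 3 arrays low in dissociation genes the difference was -1.06. Gla also stood higher in KO control than in WT control (0.55, not called), so the WT difference starts from a lower level.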

How the results depend on the processing

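No called lysosomal gene changed direction. Over the 40 calls of a lysosomal gene, 1088 of 1233 alternative values kept the call, 145 lost it and 0 reversed. Most of these values come from leaving out 1 array, often one outside the comparison, which leaves the difference as it was. The share kept therefore says little about robustness. In all, 18 calls held whichever single array was left out. Among those 18 were Gla in the WT comparison on chow (1.26 to 1.76) and Gla, Pld3 and Lipa in that on Covi-Ox. The 40 and the 18 also count calls of Atp6v0d2, which describe the filter and are not read as robust. Same-numbered arrays did not deviate together (median correlation -0.0004, -0.227 to 0.254 over 71 pairs), so the numbers pair nothing. With the replicate number as a block the count for cuprizone in WT on chow fell from 7 to 3, and no other count moved by over 1.5 times. Fits of the compared arrays alone, with fewer residual degrees of freedom, called 0 for cuprizone in WT on chow, 0 for the genotype difference in response, 0 for KO against WT under cuprizone, 0 for WT both against WT cuprizone, 0 for set B against KO control and 8 for set B against WT both. The 75th percentile filter did not test Atp6v0d2 and gave 0 for WT both against WT cuprizone. Leaving out the 3 arrays low in dissociation genes was chosen after seeing the data. It gave 3 calls for cuprizone in WT on chow, 0 for the genotype difference in response, 0 for KO against WT under cuprizone, 1 for Covi-Ox alone, 1 for the diet difference in response, 1 for set A and 2 for set B against KO control, and 17 for set A and 8 for set B against WT both. The cause was not tested. Among all genes called between KO and WT under cuprizone, 21.6% were higher, against 36.5% with quantile normalization and 7.17% with arrays centred on their medians.

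Leaving out single arrays gave 1 to 7 calls for cuprizone in WT on chow (1 without WT control array 1, 3 without WT control array 2 or WT cuprizone array 3) and 0 to 8 in KO (8 without KO control array 1, 1 without KO cuprizone array 1). It gave 0 to 1 for the genotype difference in response, 3 to 7 for KO against WT under cuprizone (3 without KO cuprizone array 2) and 0 to 2 for the genotypes on chow (2 without KO control array 1). For Covi-Ox alone the range was 0 to 1 (1 without WT cuprizone array 1 or 3), for cuprizone on Covi-Ox 5 to 9 (5 without WT Covi-Ox array 2 or WT both array 1), for WT both against WT cuprizone 0 to 1 (0 without WT cuprizone array 1 or 2 or WT both array 1) and for the diet difference in response 0 to 1 (1 without WT cuprizone array 3). Set A against KO control ranged from 0 to 4 (4 without KO control array 1), set B from 0 to 8, set A against WT both from 7 to 14 (7 without WT both array 2), set B from 3 to 8 (8 without WT cuprizone array 3, 3 without WT both array 2 or set B array 1), and set B against set A stayed at 0. Where 1 control array was left, it was assumed to vary like the other groups. Atp6v0d2 lay below most array medians outside WT both, which limits its folds.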
